A study of Homo sapiens with 12 samples.

Results

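10 genes of apoptosis control, BMF, BBC3, PMAIP1, BCL2L11, BIK, BAX, BAK1, MCL1, BCL2L1 and TNFRSF10B, were followed through 12 RNA-seq libraries of HLE cells, 10 of the 26258 genes in the deposited table. They were picked by name as BH3-only genes, effectors, survival genes and a death receptor, and with the strong fall of BMF under ATF4 loss in Sorafenib already known. The comparison of siATF4 with siCtrl in Sorafenib is therefore given as a description without a test, and so is every BMF difference that involves its libraries. The spread behind the remaining BMF tests was estimated over all 12 libraries, these included. BIK, with 0 to 14 reads per library, stayed below the filter of 1 CPM (reads of the gene per 1000000 reads on all genes) in at least 2 libraries, so 9 of the 10 genes were tested.

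The BCL2 family decides whether the outer mitochondrial membrane is opened during apoptosis. BH3-only proteins sense stress and either bind and block the survival proteins MCL1 and BCL-XL or directly engage the effectors BAX and BAK, which form the pore that releases cytochrome c. TNFRSF10B encodes DR5, a receptor for the ligand TRAIL that starts apoptosis from the cell surface through FADD and CASP8, and in hepatocytes both routes meet at the BH3-only protein BID.

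To show the DNA in front of BMF, which had the widest relative range of the 9 tested genes, and of BCL2L11, the 1 gene with a motif match, the 250 bases before the annotated starts of both are printed 5′ to 3′ on the coding strand, from RefSeq on GRCh38.p14. BMF has 2 starts, at chr15:40108880-40109129 and chr15:40106967-40107216, both on the minus strand, and BCL2L11 has the window chr2:111120664-111120913 on the plus strand. Capitals mark a match to the FOXO motif GTAAACA.

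BMF upstream start: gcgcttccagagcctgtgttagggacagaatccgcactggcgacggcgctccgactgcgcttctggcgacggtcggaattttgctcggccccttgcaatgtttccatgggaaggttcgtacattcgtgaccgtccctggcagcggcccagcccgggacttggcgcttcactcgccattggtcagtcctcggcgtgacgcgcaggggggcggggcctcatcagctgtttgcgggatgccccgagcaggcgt
BMF downstream start: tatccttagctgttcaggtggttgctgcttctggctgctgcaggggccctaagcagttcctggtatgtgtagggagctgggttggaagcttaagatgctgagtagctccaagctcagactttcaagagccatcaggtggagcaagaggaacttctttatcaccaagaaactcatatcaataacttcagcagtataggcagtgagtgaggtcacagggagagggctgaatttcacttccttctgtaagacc
BCL2L11: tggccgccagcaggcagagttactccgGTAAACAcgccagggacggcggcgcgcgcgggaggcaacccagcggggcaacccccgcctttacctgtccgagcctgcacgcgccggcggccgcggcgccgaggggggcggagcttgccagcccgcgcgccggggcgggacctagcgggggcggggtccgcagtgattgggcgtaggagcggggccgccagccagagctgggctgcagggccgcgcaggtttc

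3 motifs were searched on both strands, with no overlap between the matches found in these genes. RefSeq windows were found for 7 of the 10 genes, with 9 starts in all. The ATF4-C/EBP composite motif TGATGNAA was in 0 of the 9 windows and in 3.14% of all 35116 promoter windows. The TEAD motif GGAATG, the site used by the DNA-binding partners of YAP and TAZ, was in 0 of the 9 and in 11.9% of all. The FOXO motif GTAAACA was in 1 of the 9, in BCL2L11 at 223 bases before the start, and in 2.98% of all. These counts describe the letters of the windows only.

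HLE cells received a control siRNA (siCtrl), siRNA against YAP and TAZ (siY/T), the transcriptional co-activators of the Hippo pathway, or siRNA against ATF4 (siATF4), the transcription factor of the integrated stress response. DMSO, the vehicle, or 5 µM of the multikinase inhibitor Sorafenib (Srf) was then added, which gave 6 groups of 2 libraries: siCtrl DMSO, siY/T DMSO, siATF4 DMSO, siCtrl Srf, siY/T Srf and siATF4 Srf. The labels give no time of treatment, and HLE is 1 hepatocellular carcinoma cell line without a stated genetic change. The study's text names another dose with a time for this experiment and extraction in biological triplicates, whereas the labels, followed here, give 2 libraries per group and do not say whether these came from separate cultures. If they did not, the p-values measure technical spread only.

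The libraries held 41408348 to 53619732 reads on genes. Between the 2 libraries of a group, the chi-square per gene was 2.98 to 8.30 in 5 groups and 20.7 in siY/T DMSO. This value sets their difference against that of read counting alone, over genes with at least 50 reads in the 2 libraries together. In limma, 1 spread per gene served all 6 groups. It can understate the spread in siY/T DMSO, and p-values of comparisons with that group can then be too small. YAP1 differed by -2.41 and -2.47 on the log2 scale with siY/T in DMSO and Sorafenib, and WWTR1 (TAZ) was at 61.0 against 171 CPM and at 51.9 against 149.5 CPM. ATF4 differed by -1.33 and -2.47 with siATF4 in DMSO and Sorafenib. WWTR1 was also lower with siATF4 in DMSO (171 against 106 CPM, log2 fold change -0.70). Of 7 hepatocyte markers 1 reached 1 CPM in 2 libraries, their summed level was 0.0429 to 2.44 CPM and APOB was listed at 0 in all libraries, whereas 4 of 4 mesenchymal markers were expressed with a sum of 2898 to 3838 CPM. Leukocyte and endothelial markers reached 1 CPM in 0 of 3 each, with summed levels up to 0.488 and 0.300 CPM. In bulk RNA, a change in each cell and a change in the share of cells cannot be told apart.

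Set on a per-length scale, as CPM per kb of the canonical transcript, the level in siCtrl DMSO cells was highest for BAX at 108, followed by BCL2L1 at 58.4, MCL1 at 40.2, TNFRSF10B at 32.1 and BAK1 at 10.6 CPM per kb. The BH3-only genes were lower, with BMF at 5.17, PMAIP1 at 5.01, BBC3 at 1.73, BCL2L11 at 1.47 and BIK at 0.0644 CPM per kb. BMF and PMAIP1 overlapped in their libraries, and the other neighbours in this order did not. The place of BMF changed with depletion: it stood at 23.9 CPM per kb in siY/T DMSO cells, above BAK1, and at 0.372 CPM per kb in siATF4 DMSO cells, where BIK alone was lower.

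**Figure D1:**
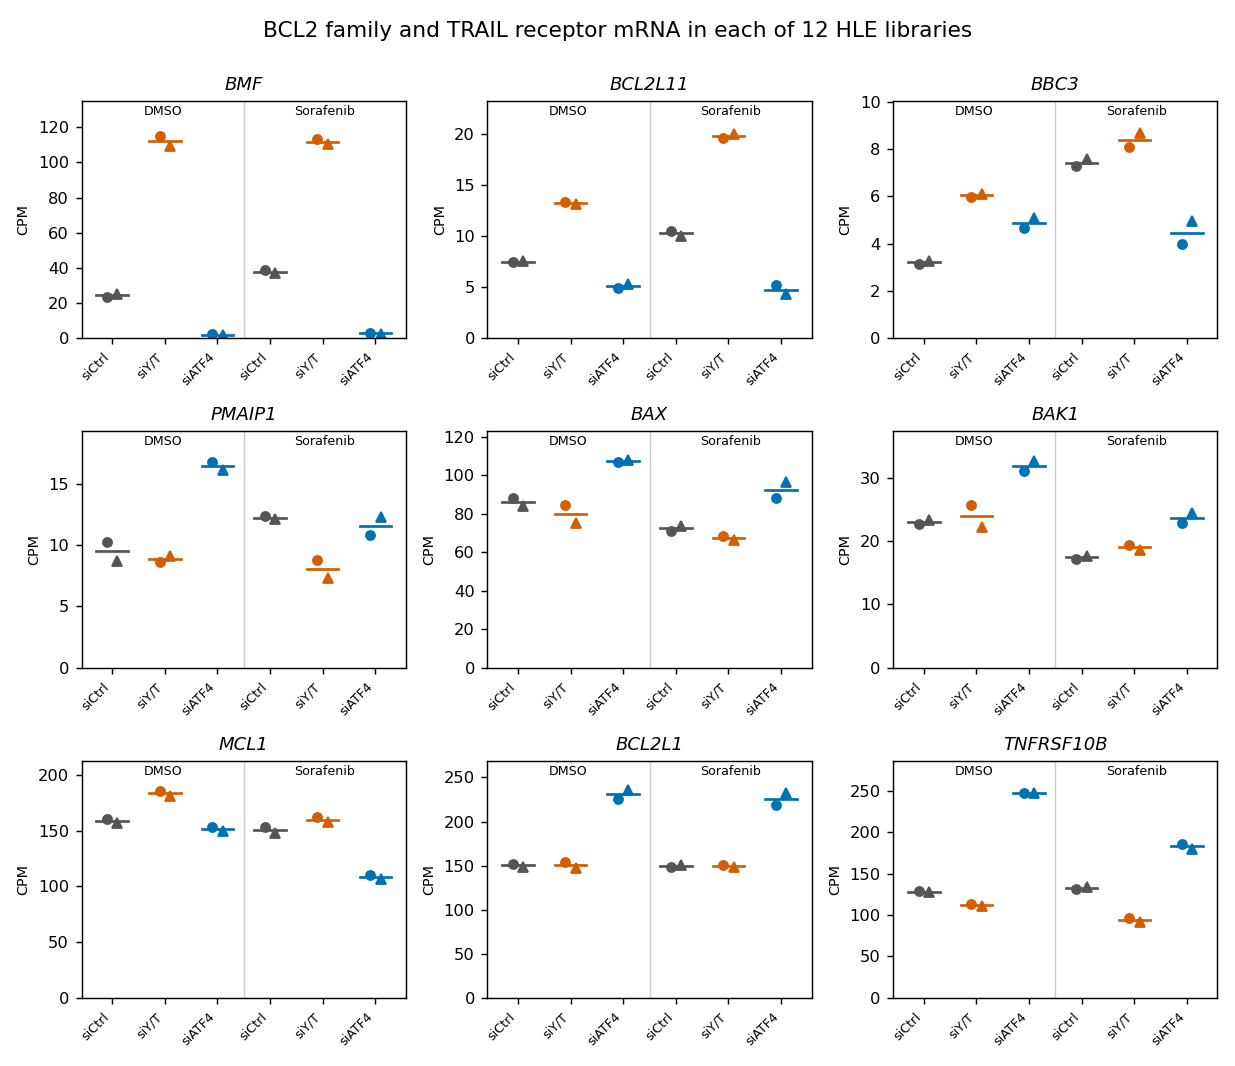
CPM (linear axis from 0) of the 9 tested genes in each of the 12 libraries, with the siRNA on the x axis, DMSO left and Sorafenib right of the grey line. Circles and triangles are libraries 1 and 2 of a group and bars are the mean of both. BMF is at 109.5 to 115 CPM in all 4 siY/T libraries and below 3 CPM in all 4 siATF4 libraries.

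Changes were measured as differences of log2(CPM + 0.5), which understates changes of low genes. A gene was called where limma gave p below 0.05 and a log2 fold change of at least 0.58 in size. Adjusted p-values are Benjamini-Hochberg values over the 13515 genes tested. With siY/T in DMSO, 3 of the 9 genes were called, against 14.6% of all genes tested (11.0% called higher), and all 3 were BH3-only genes that rose: BMF, BBC3 and BCL2L11. Of all genes called there 24.7% were lower, and 43.0% with quantile normalization. With siATF4 in DMSO 4 of 9 were called against 22.7% of all genes, BMF lower and PMAIP1, BCL2L1 and TNFRSF10B higher. With siY/T in Sorafenib 1 of the 8 genes given a test was called, BCL2L11, which rose, against 9.95% of all genes (6.11% called higher). With siATF4 in Sorafenib, the comparison used for the choice, no gene of the set was tested. By size alone, BMF, BBC3 and BCL2L11 were lower and BCL2L1 was higher by at least 0.58, and with quantile normalization BBC3 was at -0.42 and BCL2L1 at 0.54. Of all genes 28.9% were called there, and nothing is read from that share for the set.

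The median log2 fold change of the 9 genes was 0.05 with siY/T in DMSO, beside 0.07 over all genes tested, and 0.46 with siATF4 in DMSO, beside -0.00132 over all genes. In Sorafenib it was 0.09 with siY/T beside 0.05 over all genes, and -0.08 with siATF4 beside -0.00816 over all genes. The 2 libraries of a group lay apart from both siCtrl libraries for 5 of 9 genes with siY/T in DMSO, beside 76.7% of all genes. They did for 9 of 9 with siATF4 in DMSO beside 88.0%, for 8 of 9 with siY/T in Sorafenib beside 76.4% and, as a description, for 8 of 9 with siATF4 in Sorafenib beside 87.1%. All comparisons within a treatment shared their 2 siCtrl libraries.

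**Figure D2:**
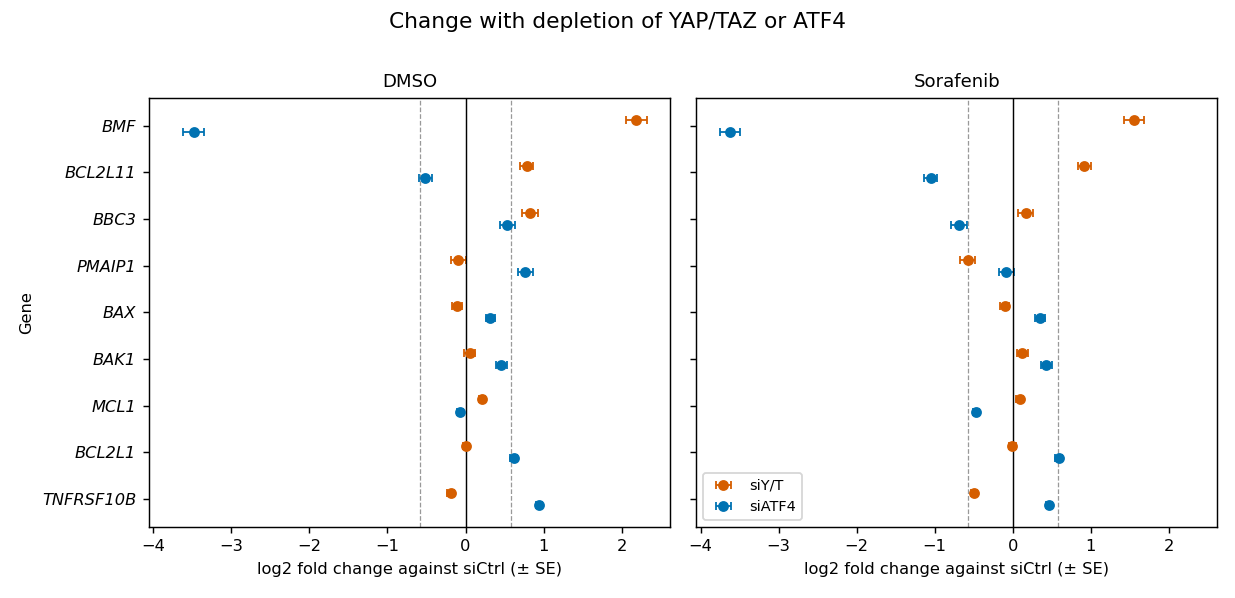
Log2 fold change of each gene with siY/T (orange) or siATF4 (blue) against siCtrl, in DMSO (left) and Sorafenib (right), on the log2(CPM + 0.5) scale with bars of 1 standard error from limma and dashed lines at the threshold of 0.58. BMF and BCL2L11 are to the right of 0 with siY/T and to the left with siATF4 in both panels, and TNFRSF10B is on the opposite sides.

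BMF encodes a BH3-only protein that is held at the cytoskeleton through a dynein light chain and blocks survival proteins when released. The gene is on chromosome 15 at 40380091 to 40401093, minus strand, in GRCh37, the build of the files. In DMSO, its level was 23.3 and 25.2 CPM in siCtrl, 115 and 109.5 CPM in siY/T, and 2.12 and 1.37 CPM in siATF4 cells. The 3 groups did not overlap, and the siATF4 libraries were the lowest while the siY/T libraries were the highest. BMF rose 4.55-fold with siY/T (log2 fold change 2.19 ± 0.13 SE, limma, adjusted p = 2.79e-08) and fell by 3.48 on the log2 scale with siATF4 (SE 0.13, limma, adjusted p = 1.51e-10), an 11.2-fold decrease. The siATF4 DMSO levels rested on 99 and 69 reads, and the log2 fold change with siATF4 moved between -3.81 and -3.22 with the pseudocount, filter, scaling and tool, and between -3.73 and -3.24 with 1 library left out.

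In Sorafenib, BMF was at 38.5 and 37.0 CPM in siCtrl, 113 and 110.5 CPM in siY/T and 2.98 and 2.27 CPM in siATF4 cells. The order of the siRNAs was that seen in DMSO. These log2 differences from siCtrl, 1.55 with siY/T and -3.62 with siATF4, are a description, since the siCtrl Srf and siATF4 Srf libraries were used for the choice of BMF. So are the log2 differences between Sorafenib and DMSO of 0.63 in siCtrl and 0.49 in siATF4 cells. In siY/T cells, whose libraries were not used in the choice, the levels with and without Sorafenib overlapped and the log2 difference was -0.01 with a 95% interval of -0.29 to 0.28 (limma, adjusted p = 0.978).

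BCL2L11 encodes BIM, a BH3-only protein that binds all main survival proteins and is a known transcriptional target of FOXO factors. It is on chromosome 2 at 111876955 to 111926021, plus strand, and the BCL2L11 window printed above held the 1 FOXO match of the set. With DMSO, BCL2L11 was at 7.40 and 7.55 CPM in siCtrl, 13.3 and 13.1 CPM in siY/T and 4.89 and 5.29 CPM in siATF4 cells. It rose with siY/T (log2 fold change 0.78 ± 0.09 SE, limma, adjusted p = 5.2e-06). Its value with siATF4, -0.51 (limma, adjusted p = 1.38e-04), was below the threshold on size. With Sorafenib, it was at 10.5 and 9.99 CPM in siCtrl, 19.7 and 20.0 CPM in siY/T and 5.14 and 4.26 CPM in siATF4 cells, again with no overlap between the groups. BCL2L11 rose with siY/T in Sorafenib too (log2 fold change 0.92 ± 0.09 SE, limma, adjusted p = 2.06e-06). The descriptive difference with siATF4 was -1.05. The difference between the siY/T effects in Sorafenib and in DMSO did not pass the test (0.14, 95% interval -0.13 to 0.40, limma, adjusted p = 0.446).

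BCL2L11 shares exon sequence on the opposite strand with the noncoding RNA gene MIR4435-2HG, and whether reads were counted by strand is not given in the sources used here. MIR4435-2HG had mean levels of 16.3, 14.1 and 23.6 CPM in siCtrl, siY/T and siATF4 cells with DMSO and of 14.2, 8.95 and 27.98 CPM with Sorafenib. It was lowest with siY/T and highest with siATF4, the reverse of the order of BCL2L11.

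BBC3 encodes PUMA, a BH3-only protein that can neutralize all survival proteins. It is on chromosome 19 at 47724079 to 47736023, minus strand. With DMSO, BBC3 was at 3.15 and 3.24 CPM in siCtrl, 5.99 and 6.11 CPM in siY/T and 4.65 and 5.07 CPM in siATF4 cells. It rose with siY/T (log2 fold change 0.83 ± 0.10 SE, limma, adjusted p = 1.15e-05). With siATF4 the log2 difference of 0.54 (limma, adjusted p = 3.21e-04) was just under the threshold on size in limma and over it in edgeR at 0.61 and DESeq2 at 0.61. With Sorafenib, BBC3 was at 7.30 and 7.57 CPM in siCtrl, 8.11 and 8.70 CPM in siY/T and 3.96 and 4.94 CPM in siATF4 cells. The siATF4 libraries, above the siCtrl libraries in DMSO, were below them in Sorafenib, with a descriptive difference of -0.69. The siY/T difference in Sorafenib was 0.17 (95% interval -0.05 to 0.38, limma, adjusted p = 0.183).

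PMAIP1 encodes NOXA, a BH3-only protein that binds MCL1 and is known to be induced by ATF4. It is on chromosome 18 at 57567228 to 57571537, plus strand. With DMSO, PMAIP1 was at 10.3 and 8.74 CPM in siCtrl, 8.62 and 9.13 CPM in siY/T and 16.8 and 16.2 CPM in siATF4 cells. It rose with siATF4 (log2 fold change 0.77 ± 0.10 SE, limma, adjusted p = 1.35e-05), while the siY/T libraries overlapped those of siCtrl. With Sorafenib, PMAIP1 was at 12.4 and 12.1 CPM in siCtrl, 8.77 and 7.36 CPM in siY/T and 10.8 and 12.3 CPM in siATF4 cells. Here the siY/T libraries were the lowest and those of siATF4 overlapped siCtrl. The siY/T difference of -0.5799 (limma, adjusted p = 3.28e-04) fell just short of the threshold on size, and it passed in edgeR at -0.66 and DESeq2 at -0.66.

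BIK, a BH3-only gene of the endoplasmic reticulum on chromosome 22 at 43506756 to 43525718, had 44 reads summed over all 12 libraries. Its highest level, 0.277 CPM or 14 reads, was in 1 siATF4 DMSO library, and the other library of that group held 3 reads. No difference of BIK could be measured at this depth.

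The effectors BAX and BAK1, which build the pore, were not called in any comparison of 2 groups. BAX, on chromosome 19 at 49458072 to 49465055, was at 88.3 and 84.0 CPM in siCtrl, 84.8 and 75.3 CPM in siY/T and 107 and 108 CPM in siATF4 cells with DMSO. With Sorafenib it was at 71.1 and 73.7 CPM in siCtrl, 68.2 and 66.5 CPM in siY/T and 88.2 and 96.4 CPM in siATF4 cells. Both siATF4 libraries were the highest in either treatment, by 0.32 in DMSO (limma, adjusted p = 4.05e-04) and by 0.35 in Sorafenib on the log2 scale.

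BAK1, on chromosome 6 at 33540324 to 33548070, had the same order of siATF4 above siCtrl. It was at 22.7 and 23.4 CPM in siCtrl, 25.7 and 22.3 CPM in siY/T and 31.1 and 32.6 CPM in siATF4 cells with DMSO. With Sorafenib it was at 17.2 and 17.6 CPM in siCtrl, 19.4 and 18.6 CPM in siY/T and 22.8 and 24.4 CPM in siATF4 cells. The siATF4 difference was 0.46 in DMSO (limma, adjusted p = 7.18e-05) and 0.43 in Sorafenib, whereas with siY/T the 95% interval included 0 in both treatments. BAK1 has processed copies in the genome, BAK1P1 and BAK1P2, which can take reads from it when unique hits are required.

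The survival genes differed from each other. BCL2L1, which encodes BCL-XL, is on chromosome 20 at 30252255 to 30311792. It was at 152 and 149 CPM in siCtrl, 154 and 148 CPM in siY/T and 226 and 235 CPM in siATF4 cells with DMSO. With Sorafenib the levels were 149 and 151 CPM in siCtrl, 151 and 148 CPM in siY/T and 218 and 233 CPM in siATF4 cells. All 8 libraries without siATF4 lay between 148 and 154 CPM and all 4 with it at or above 218 CPM. BCL2L1 rose 1.53-fold with siATF4 in DMSO (log2 fold change 0.62 ± 0.04 SE, limma, adjusted p = 5.69e-08), and the descriptive difference in Sorafenib was 0.59. With siY/T the log2 difference was 0.01 in DMSO (95% interval -0.09 to 0.10) and -0.00427 in Sorafenib (95% interval -0.10 to 0.09).

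MCL1 encodes a short-lived survival protein that NOXA marks for degradation, and its gene is on chromosome 1 at 150533371 to 150552214. With DMSO, MCL1 was at 160.4 and 157 CPM in siCtrl, 186 and 181 CPM in siY/T and 153 and 149.96 CPM in siATF4 cells. With Sorafenib, it was at 153 and 148 CPM in siCtrl, 163 and 158 CPM in siY/T and 110.1 and 107 CPM in siATF4 cells. The 2 siATF4 Srf libraries were the lowest of the 12. MCL1 was not called in any comparison of 2 groups, and its differences with siY/T were 0.21 in DMSO (limma, adjusted p = 6.49e-04) and 0.09 in Sorafenib (limma, adjusted p = 0.0919). With siATF4 they were -0.07 in DMSO (limma, adjusted p = 0.145) and -0.47 in Sorafenib. The gene overlaps exons of ADAMTSL4 on the opposite strand, which was at 4.93 to 26.5 CPM over the libraries, far below MCL1.

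TNFRSF10B, on chromosome 8 at 22877646 to 22926544, minus strand, was the receptor in the set. With DMSO, it was at 129 and 128 CPM in siCtrl, 114 and 111 CPM in siY/T and 248 and 247 CPM in siATF4 cells. It rose 1.93-fold with siATF4 (log2 fold change 0.95 ± 0.04 SE, limma, adjusted p = 4.06e-10). With Sorafenib it was at 131 and 134 CPM in siCtrl, 96.0 and 92.0 CPM in siY/T and 186 and 180.4 CPM in siATF4 cells. The groups did not overlap in either treatment, with siATF4 highest and siY/T lowest. The siY/T differences of -0.19 in DMSO (limma, adjusted p = 0.00107) and -0.50 in Sorafenib (limma, adjusted p = 5.39e-07) were below the threshold on size, and the descriptive siATF4 difference in Sorafenib was 0.46. TNFRSF10B overlaps exons of RHOBTB2 on the opposite strand, which had mean levels of 30.4 CPM in siCtrl, 38.5 CPM in siY/T and 33.0 CPM in siATF4 cells with DMSO.

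To see what Sorafenib did to these genes, each siRNA was compared with its own DMSO libraries. In siCtrl cells 1 of the 8 genes given a test was called, BBC3, which rose, against 17.5% of all genes (12.3% called higher). Of all genes called there 29.5% were lower, and 47.7% with quantile normalization. BBC3 rose 2.15-fold (log2 fold change 1.10 ± 0.10 SE, limma, adjusted p = 7.63e-07). The descriptive difference of BMF, 0.63, became 0.576 without siCtrl DMSO replicate 1. BCL2L11 at 0.43 (limma, adjusted p = 6.79e-04) and PMAIP1 at 0.35 (limma, adjusted p = 0.00665) were higher by less than the threshold. BAX at -0.25 (limma, adjusted p = 0.00265) and BAK1 at -0.40 (limma, adjusted p = 3.0e-04) were lower by less than the threshold. For MCL1, BCL2L1 and TNFRSF10B the 95% interval of the difference included 0. Both Sorafenib libraries lay apart from both DMSO libraries for 8 of 9 genes in siCtrl cells, beside 84.9% of all genes, for 6 of 9 in siY/T cells beside 71.7%, and for 6 of 9 in siATF4 cells beside 79.6%.

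In siY/T cells 0 of 9 genes were called by limma, edgeR and DESeq2, against 9.97% of all genes in limma, and 6 of 9 had an unadjusted p below 0.05. BCL2L11 had the highest value at 0.57 (limma, adjusted p = 1.27e-04), followed by BBC3 at 0.44 (limma, adjusted p = 0.00226). BAK1 at -0.33, TNFRSF10B at -0.26, BAX at -0.25 and MCL1 at -0.20 were on the lower side, with limma adjusted p-values of 0.00189, 1.63e-04, 0.00406 and 0.00125. In siATF4 cells 0 of the 8 genes given a test were called by the same tools, against 8.63% of all genes, and 5 of the 8 had an unadjusted p below 0.05. All 5 were on the lower side: PMAIP1 at -0.49, MCL1 at -0.48, TNFRSF10B at -0.43, BAK1 at -0.42 and BAX at -0.22. Their limma adjusted p-values were 0.00108 for PMAIP1, 1.03e-06 for MCL1, 2.32e-06 for TNFRSF10B, 2.91e-04 for BAK1 and 0.00846 for BAX. BBC3 at -0.12 (95% interval -0.33 to 0.09) and BCL2L11 at -0.11 (95% interval -0.29 to 0.08) had overlapping libraries. Without siATF4 Srf replicate 2, PMAIP1 was called in siATF4 cells at -0.58. The descriptive difference of BMF there ranged from 0.24 to 0.73 with 1 library left out.

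**Figure D3:**
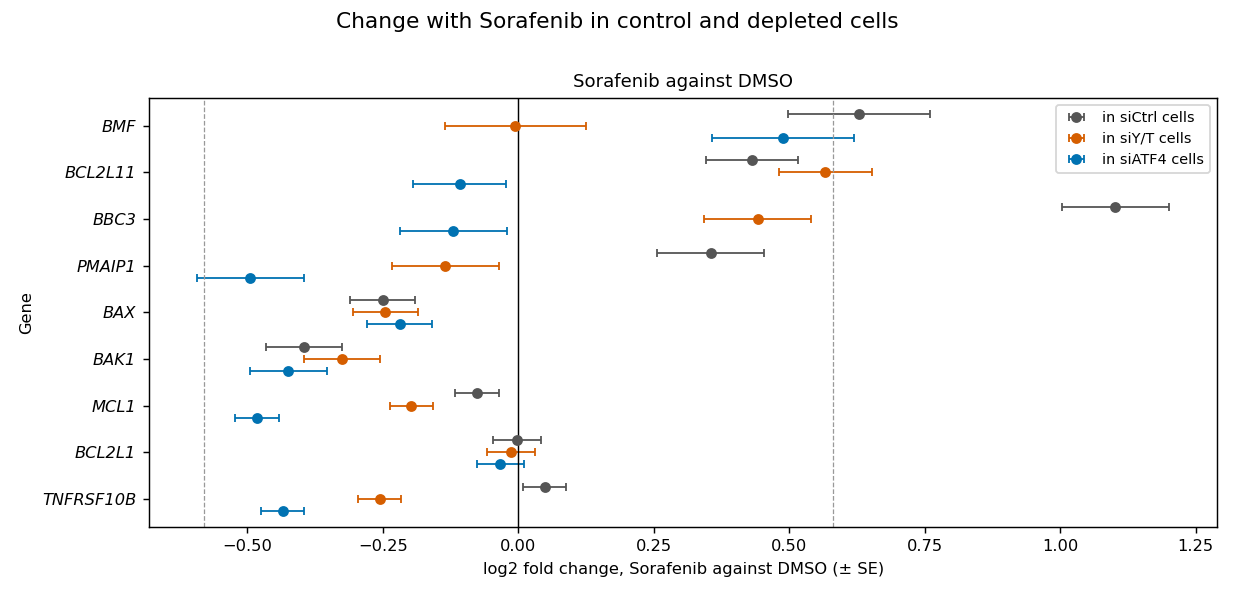
Log2 fold change of each gene between Sorafenib and DMSO in siCtrl (grey), siY/T (orange) and siATF4 (blue) cells, on the log2(CPM + 0.5) scale with bars of 1 standard error from limma and dashed lines at 0.58. BAX and BAK1 lie left of 0 in all 3, between -0.22 and -0.42, while BBC3 is at 1.10, 0.44 and -0.12.

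Whether a depletion acted differently with Sorafenib was tested as the difference between its effects in Sorafenib and in DMSO. For siY/T, 3 of the 8 genes given a test passed at an adjusted p below 0.05, against 22.0% of all genes (14.2% negative), and all 3 differences were negative. BBC3 was at -0.66 ± 0.14 SE (limma, adjusted p = 0.00588), which is a siY/T effect of 0.83 in DMSO and of 0.17 in Sorafenib. TNFRSF10B was at -0.30 ± 0.06 SE (limma, adjusted p = 0.00286), with effects of -0.19 and -0.50. PMAIP1 was at -0.49 ± 0.14 SE (limma, adjusted p = 0.0249), with effects of -0.09 and -0.58. The call of PMAIP1 was lost without siCtrl DMSO replicate 2 (adjusted p = 0.119), siCtrl Srf replicate 1 (adjusted p = 0.0709), siCtrl Srf replicate 2 (adjusted p = 0.0661) or siY/T Srf replicate 2 (adjusted p = 0.089), and also when genes of low level were not filtered out (adjusted p = 0.0655), all in limma. For BMF the descriptive value was -0.63. BAX, BAK1 and BCL2L1 had differences of 0.01, 0.07 and -0.01, with 95% intervals from -0.18 to 0.19, from -0.15 to 0.29 and from -0.15 to 0.12.

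For siATF4 these differences hold the comparison used for the choice and are a description. BBC3 at -1.22, PMAIP1 at -0.85, BCL2L11 at -0.54, TNFRSF10B at -0.48 and MCL1 at -0.41 had the values farthest from 0. BMF was at -0.14, BCL2L1 at -0.03, BAX at 0.03 and BAK1 at -0.03. Of all genes 41.1% passed the test of this difference, and nothing is read from that share for the set.

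Of the other BCL2 family genes, 7 of 8 pro-death and 4 of 5 survival genes were expressed enough to be tested. With siATF4 in DMSO the survival genes BCL2 and BCL2A1 were higher, from low mean levels. BCL2 went from 0.562 to 1.56 CPM (log2 fold change 0.96) and BCL2A1 from 0.0426 to 1.27 CPM. BCL2A1 reached the filter of 1 CPM only in the siATF4 DMSO libraries, and BCL2 only in siATF4 libraries. Both thus entered the test through the group where they were high, and their rise is a description. BCL2L12 fell by 0.70. The siCtrl DMSO level of BCL2A1 stood on 1 and 3 reads, so no fold is given for it. In that comparison 1 of 7 pro-death genes was called, BCL2L13 at 0.66, beside 22.7% of all genes. With siY/T in DMSO 1 of 7 pro-death genes was called, beside 14.6% of all genes. It was HRK at -0.63, with mean levels of 0.126 CPM in siY/T and 0.466 CPM in siCtrl cells. HRK reached 1 CPM only in siCtrl Srf replicate 2 and siATF4 Srf replicate 2.

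The ligands and receptors around TNFRSF10B moved in part alongside it. TNFRSF10A, the other TRAIL receptor with a death domain, was at 18.8 and 20.7 CPM in siCtrl and at 39.2 and 41.1 CPM in siATF4 cells with DMSO, a rise of 1.01 on the log2 scale (limma, adjusted p = 7.78e-08). TNFRSF10D, a TRAIL receptor with a truncated death domain, rose as well, from 31.4 and 29.4 CPM to 79.1 and 71.5 CPM (log2 fold change 1.29, limma, adjusted p = 4.09e-09). In all, 3 of 8 tested receptors, decoys and ligands rose and 1 fell with siATF4 in DMSO, beside 22.7% of all genes called. The third rise was TNFRSF25 at 1.07 and the fall TNFRSF21 at -0.84. With siY/T in DMSO 2 of 8 were called higher, beside 11.0% of all genes. TNFSF10, which encodes TRAIL itself, went from 3 reads in each siCtrl library (mean 0.0613 CPM) to a mean of 0.715 CPM. The decoy TNFRSF10C was at 0.69. TNFSF10 reached the filter of 1 CPM only in the siY/T Srf libraries. TNFRSF10C reached it in all siY/T libraries and otherwise only in siCtrl Srf replicate 2. Both entered the test largely through siY/T libraries where they were high, so the 2 rises are a description. Similar stretches among the TRAIL receptor genes, TNFRSF10B included, can lose reads when unique hits are required, so their levels are uncertain to that extent.

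Downstream of the receptor, CASP10 rose with siY/T (0.78) and fell by 1.00 with siATF4 in DMSO. FADD rose at 0.64 and TRADD fell by 0.58 with siATF4. Thus 1 of 8 death receptor signalling genes rose and 2 fell with siATF4, beside 22.7% of all genes called. With siY/T 1 was called, beside 14.6% of all genes. Of 9 caspase and apoptosome genes, CASP9 rose (0.76) and CYCS, cytochrome c, fell by 0.64 with siY/T, whereas CASP6 and APAF1 fell by 1.10 and 0.70 with siATF4. Thus 1 of the 9 rose and 1 fell with siY/T, beside 14.6% of all genes called. With siATF4 2 fell, beside 22.7% of all genes. Among 6 inhibitors of apoptosis BIRC3, which encodes cIAP2, had the widest range. BIRC3 was at 48.6 and 41.6 CPM in siCtrl, 14.1 and 14.6 CPM in siY/T and 273 and 286 CPM in siATF4 cells with DMSO, with log2 fold changes of -1.61 (limma, adjusted p = 2.59e-08) and 2.62 (limma, adjusted p = 1.12e-10). BIRC2 (0.99) rose and BIRC7 fell by 0.70 with siATF4. BIRC7 reached the filter of 1 CPM only in the siCtrl Srf and siY/T libraries, so its fall is a description. By the thresholds 2 of the 6 inhibitors rose and 1 fell with siATF4, beside 22.7% of all genes called. With siY/T 1 fell, beside 14.6% of all genes. Of 9 genes of the mitochondrial pore and BCL2 partners 1 was called with siATF4, BAG1 at 0.64, beside 22.7% of all genes.

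**Figure D4:**
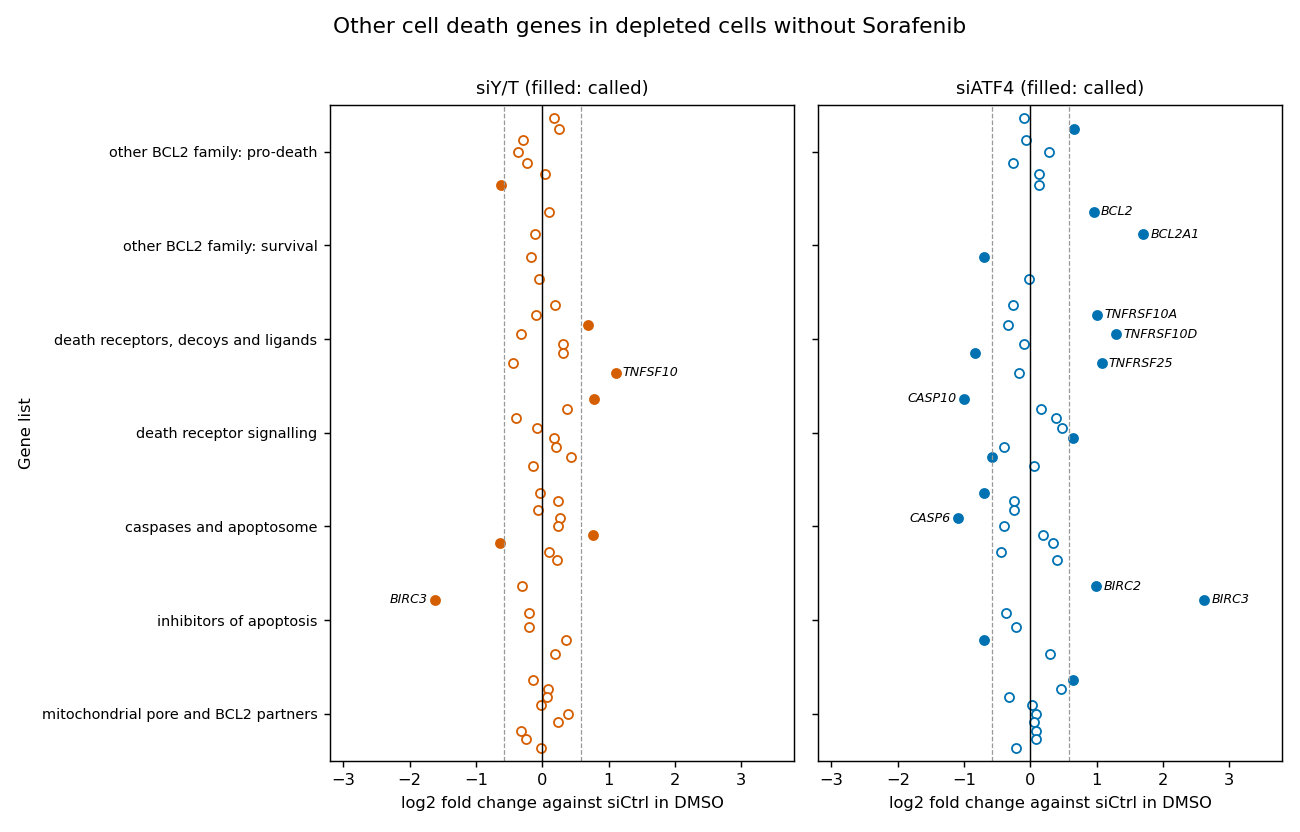
Log2 fold change against siCtrl in DMSO of 7 lists of other cell death genes with siY/T (left) and siATF4 (right), 1 point a gene, filled where called, dashed lines at 0.58 and names where the change is above 0.95 in size. BIRC3 is at -1.61 on the left and 2.62 on the right.

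Stress response genes, some of them factors known to control the genes of the set, were looked at last. Among 10 tested stress genes FOXO3, a FOXO factor, was at 39.9 and 41.3 CPM in siCtrl, 60.7 and 67.5 CPM in siY/T and 23.9 and 25.3 CPM in siATF4 cells with DMSO. FOXO3 thus had log2 fold changes of 0.65 (limma, adjusted p = 1.13e-06) with siY/T and of -0.71 with siATF4, the same order of groups as BMF and BCL2L11, and its part in their levels was not tested. DDIT3, which encodes CHOP, an activator of TNFRSF10B in the stress response, was at 26.2 and 25.3 CPM in siCtrl, 23.4 and 22.8 CPM in siY/T and 108 and 107 CPM in siATF4 cells with DMSO. Its rise of 2.04 with siATF4 (limma, adjusted p = 6.24e-12) stood beside the rise of TNFRSF10B, and its part in that rise was not tested. With Sorafenib, mean DDIT3 went from 25.7 to 79.1 CPM in siCtrl and from 23.1 to 43.9 CPM in siY/T cells. TNFRSF10B went from 128 to 133 CPM and from 112 to 94.0 CPM there. In siATF4 cells both were lower with Sorafenib, DDIT3 at 99.2 against 107 CPM and TNFRSF10B at 183 against 247 CPM. With siATF4 in DMSO 4 of the 10 stress genes rose, CEBPB among them (2.24), and 3 fell, beside 22.7% of all genes called. The 3 were CHAC1 (-0.87), FOXO3 and ATF4 itself, the siRNA target, whose fall was set by the design. With siY/T 1 was called, beside 14.6% of all genes. In siCtrl cells with Sorafenib 6 of the 10 rose and 1 fell, beside 17.5% of all genes called. CHAC1 (2.28), DDIT3 (1.60) and TRIB3 (1.49) had the highest values.

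In Sorafenib, siY/T lowered 6 of the 10 stress genes, beside 9.95% of all genes called. Among them were ATF3 (-1.49), JUN (-1.42) and CHAC1 (-1.20). Of the cell death lists HRK (-0.98), TNFRSF25 (-0.89) and BIRC3 (-0.59) were lower and TNFSF10 was higher, at 1.44 against 0.193 CPM. With siATF4 in Sorafenib 5 of the 10 stress genes were lower and 2 higher, beside 28.9% of all genes called. The 5 included ATF4, the siRNA target, whose fall was set by the design. CHAC1 (-2.76), FOXO3 (-1.26) and E2F1 (1.20) were the farthest from 0 of the other stress genes. In that comparison BIRC3 (2.27), BIRC2 (0.90), TNFRSF10D (1.19), TNFRSF10A (0.87), BCL2 (1.36), CFLAR (0.88), CYCS (0.70) and BAG1 (0.60) were higher. BIRC7 (-1.98, 0.228 against 2.38 CPM), TRADD (-1.53), CASP10 (-1.32), CASP6 (-0.87), TNFRSF21 (-0.63), BNIP3L (-0.72) and BCL2L2 (-0.59) were lower. In siCtrl cells, Sorafenib lowered BIRC3 (-0.97), BIRC5 (-0.73), TNFRSF10D (-0.81) and CYCS (-0.65) and raised BIRC7 (1.14), HRK (0.68) and CASP10 (0.59). In siY/T cells BIRC5 (-0.85) and JUN (-0.94) fell and CHAC1 (1.42), DDIT3 (0.91) and TNFSF10 (0.67, from 0.715 to 1.44 CPM) rose with Sorafenib. In siATF4 cells BCL2A1 (-1.48, from 1.27 to 0.132 CPM), BIRC3 (-1.32), CEBPB (-0.99) and TNFRSF10D (-0.92) fell and TNFRSF21 (0.69) rose with Sorafenib, and TNFRSF10D moved in the direction of TNFRSF10B. BCL2, BCL2A1, TNFSF10, HRK and BIRC7 passed the filter of 1 CPM only through groups where they were high. Their values here are a description.

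The siY/T effect differed between Sorafenib and DMSO for 8 of the 10 stress genes, all lower in Sorafenib, beside 22.0% of all genes (14.2% negative). ATF3 (-0.99), CHAC1 (-0.85) and JUN (-0.85) were farthest from 0. In the cell death lists it was lower for BIRC7 (-0.77), CASP10 (-0.52), TNFRSF25 (-0.44), BOK (-0.44), DYNLT1 (-0.26) and BCL2L13 (-0.19). It was higher for BIRC3 (1.02), TNFRSF10D (0.66), CFLAR (0.34) and CYLD (0.22). BIRC7 passed the filter of 1 CPM only through the siCtrl Srf and siY/T libraries, so its value is a description.

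The 5 genes whose pattern over the 12 libraries was most like that of BMF, among the 11151 genes averaging 5 CPM or more, were FAM168A, SAMD11, GNAI2, B4GALT1 and AMOT, with Pearson r of 0.9969, 0.9968, 0.9967, 0.9965 and 0.9951. SAMD11 had mean levels of 5.98, 26.5 and 0.547 CPM in siCtrl, siY/T and siATF4 cells with DMSO. For TNFRSF10B they were TACC2, PEX26, RELB, ADORA2B and YDJC, with r from 0.9812 to 0.9945. RELB, an NF-kB subunit, was at 14.3, 11.3 and 43.0 CPM in the same groups. These values are a description over libraries that share their groups.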

How the data were processed

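RNA of 12 HLE libraries, 2 in each of 6 groups, was sequenced after poly(A) selection. The table deposited by the authors holds CPM, scaled to 1000000 reads on genes in each library, from STAR alignment to hg19 with unique hits only and exon counting on RefSeq mRNAs in QuasR. Whether counting used strand is not given in the sources used here. All values (100%) came out as whole reads to within 0.001 read, and these reads entered edgeR 4.0.16 and DESeq2 1.42.0, run as alternatives. Depth was 41408348 to 53619732 reads, and 1 read was worth 0.0186 to 0.0242 CPM. Names came from RefSeq by Entrez identifier, and positions from GENCODE on GRCh37.

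Genes with at least 1 CPM in 2 libraries, 13515 in all, were fitted on log2(CPM + 0.5) with limma 3.58.1 in R 4.3.3, 1 coefficient per group and a variance trend. A gene was called at a two-sided p below 0.05 and a log2 fold change of 0.58, as the study's methods set it. Differences between effects needed a Benjamini-Hochberg adjusted p below 0.05. The 10 genes and all lists were chosen with earlier results of these data known. Named were all 10 genes, up to 3 called genes with the largest change per list and comparison (the siATF4 difference between treatments aside), the siRNA targets and the 5 genes most correlated with BMF and with TNFRSF10B. The siATF4 values of FOXO3 and TNFRSF21 in DMSO lie outside this rule and were named after they were seen. The steps were tested on simulated data. Some items are not reported here. Alternatives were other pseudocounts, filters, scalings, tools and thresholds, a replicate block, a fit of the compared groups only, and each library left out in turn.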

Additional observations from a re-analysis of the deposited data

Results flagged for a closer look

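Of the 8 genes of the set given this test, 3 had a siY/T effect that differed between Sorafenib and DMSO by the test of the difference itself (limma, Benjamini-Hochberg adjusted p below 0.05), as did 22.0% of all genes tested. BBC3 had the largest of the 3 at -0.66 on the log2 scale: siY/T and siCtrl libraries averaged 6.05 and 3.20 CPM in DMSO and 8.40 and 7.43 CPM in Sorafenib. PMAIP1 was at -0.49, with 8.88 and 9.51 CPM in DMSO and 8.07 and 12.3 CPM in Sorafenib. TNFRSF10B was at -0.30, with 112 and 128 CPM in DMSO and 94.0 and 133 CPM in Sorafenib. In BBC3 and PMAIP1 the siCtrl libraries moved more with Sorafenib than the siY/T libraries did, and in TNFRSF10B the siY/T libraries moved more. The reason was not tested.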

How the results depend on the processing

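Values of the 9 genes were compared under the other pseudocounts, filters, scalings, tools and sample choices, the block and left-out libraries. Of these, 1150 kept their side of the threshold or, where no test is given, moved by less than the replicate spread. Uncalled values whose sign changed count among the 1150. Of the rest, 37 without a test moved further, 14 passed and 5 ceased to pass the threshold, and 0 called values changed sign. The counts that follow are by the thresholds with BMF and, in Sorafenib with siATF4, all 9 genes included, as a description. With a pseudocount of 0.1, 1 gene was called for Sorafenib in siY/T cells (BCL2L11) and 1 in siATF4 cells, in place of 0. Without a filter the siY/T difference between treatments had 2 calls in place of 4, and with libraries left out 2 to 4. Quantile normalization left 2 of 4 calls for siATF4 in Sorafenib. An adjusted p with a log2 change of 1 left 1 call each for siY/T in DMSO, siATF4 in DMSO, siY/T in Sorafenib and Sorafenib in siCtrl cells, and 2 for siATF4 in Sorafenib. Leaving out 1 library gave 1 to 2 calls for Sorafenib in siCtrl and 0 to 2 in siATF4 cells. Causes were not tested, apart from fewer libraries or a stricter limit by construction. Groups shared replicate numbers, but same-numbered libraries share only a number (correlation of deviations -0.0796 to 0.193, 2 pairs). With the replicate number as a block the members called were 3, 4, 2 and 4 for the 4 comparisons with siCtrl and changed nowhere, and over all genes the siY/T difference had 2814 calls in place of 2978. Depth limited BIK, with at most 14 reads.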
